A study of Mus musculus with 24 samples.

Results

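Cytosolic ribosomal proteins are the protein components of the ribosome outside mitochondria, and their genes were followed across 4 mouse brain regions with and without the circular RNA Cdr1as. A gene was taken when its mouse symbol was Rpl or Rps followed by a digit, Rpsa, or Rplp0 to Rplp2, and when its mean over all libraries was at least 1 CPM (CPM is a gene's count scaled to a fixed library total). Pseudogenes named with -ps and the Rps6k kinases were left out. The symbols that fitted were 90, of which 88 were found in the count tables and 7 were under 1 CPM, leaving 81 members among 37621 features. Of the 81, 48 belong to the large subunit and 33 to the small subunit. Rps3a2, Rpl3l and Rpl6l lay just under the minimum at 0.468, 0.406 and 0.405 CPM, and Rps27l, Rps4l and Rpl36al were the lowest members at 9.84, 13.0 and 22.4 CPM. None of the members was lost to a low-count filter, so all 81 were tested in every comparison. Current identifiers of Rpl24 and Rpl32l were not among the features and were not analysed here.

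The libraries came from 4 dissected brain regions of C57BL/6 mice (olfactory bulb, hippocampus, cortex and cerebellum) that were wild type or Cdr1as knockout, with 3 libraries in each of 8 groups and 24 in all. Cdr1as is a circular RNA of neurons that binds the microRNA miR-7. Age, sex and whether libraries came from separate animals are not given in the sources used here, so the spread between libraries may be partly technical. RNA was poly(A)-selected, and depth was 21068566 to 40472007 gene counts per library. The feature for Cdr1as held 61 to 973 counts in wild-type libraries and 4 to 43 in knockout libraries, or 2.23 to 29.0 against 0.115 to 1.95 CPM. Each region's marker genes summed highest in their own 6 libraries, as in the cerebellum with 6301 to 7005 CPM over 10 markers against 188 to 293 CPM elsewhere.

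A ribosome is built from ribosomal RNA and a single copy of most ribosomal proteins, and cells make these proteins in matched amounts. Their mRNAs belong to the terminal oligopyrimidine (TOP) class, which begin with a cytosine followed by a run of pyrimidines. The mTOR kinase, through the protein LARP1, uses that run to switch their translation on and off. Neurons hold ribosomes in the cell body, dendrites and axons, and mRNAs of ribosomal proteins are among those found in neurites.

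Ribosomal protein mRNA took a smaller share of counts in the cerebellum than in the other regions in both genotypes. Between knockout and wild type 0 of 81 members passed the test. Of all genes tested, 0% to 0.0379% passed in single regions and 2.68% for the average of the regions. The 81 members together took 0.730% to 0.860% of gene counts in the 6 cerebellar libraries and 0.978% to 1.37% in the 18 others. After scaling by TMM (trimmed mean of M values, a correction for composition), their summed level was 8101, 8448 and 8332 CPM in the wild-type cerebellum and 8546, 8126 and 7444 CPM in the knockout cerebellum. The other 18 libraries held between 9935 and 12405 CPM, with no overlap. The cortex, hippocampus and olfactory bulb overlapped one another.

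**Figure D1:**
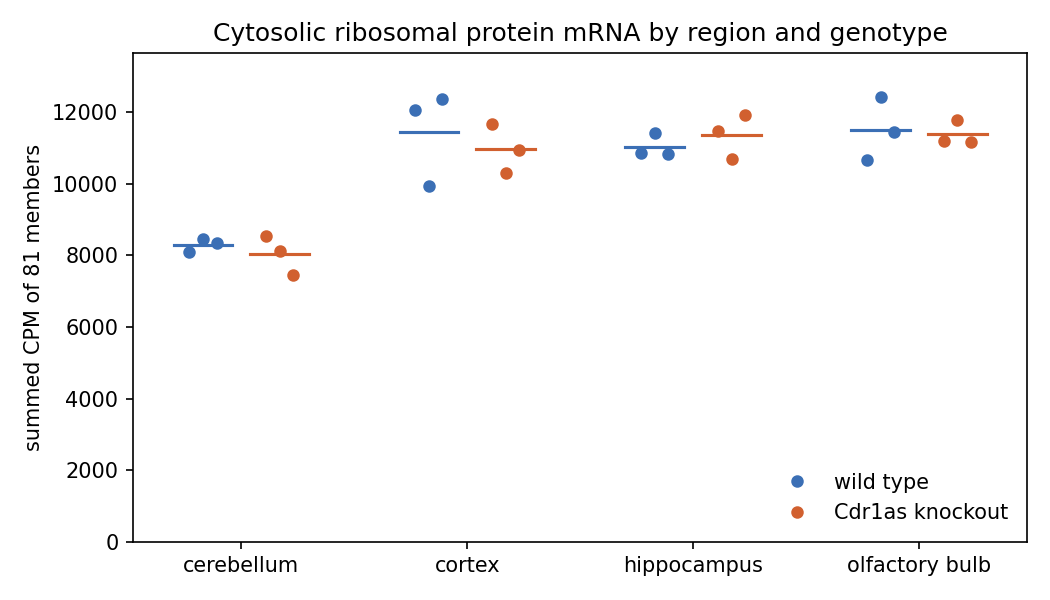
Summed level of the 81 cytosolic ribosomal protein genes in CPM (TMM-scaled) by region and genotype; each point is 1 library and each line the mean of 3. The 6 cerebellar libraries lie between 7444 and 8546 CPM and all 18 others between 9935 and 12405 CPM.

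Gene by gene, 65 of 81 members were lower in the cerebellum than in the cortex in wild type, against a background of 27.3% of all genes tested that were lower. Against the hippocampus 59 members were lower (background 24.7%), and against the olfactory bulb 70 (background 23.7%). The median log2 difference of the members was -0.41, -0.36 and -0.46, while the median of all genes was 0.02, 0.03 and 0.02. The tests were edgeR's quasi-likelihood F test with Benjamini-Hochberg adjustment over all genes, and an adjusted p under 0.05 was called. In the knockout libraries, which share none with the wild type, 65, 72 and 74 members were lower (backgrounds 30.6%, 29.2% and 27.8%), with medians of -0.42, -0.46 and -0.48.

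The calls fell largely on the same members in both genotypes. Against the cortex, 61 members were lower in both (25.6% of all genes were), which is 93.8% of the calls in each genotype. Against the hippocampus 59 were lower in both (background 23.1%), and against the bulb 70 (background 22.2%). Across all 6 comparisons, 53 members were lower every time (background 12.2%) and 5 were lower in none. For 54 members, all 6 cerebellar libraries lay below all 18 others (background 11.7%). The mean over the 6 comparisons had a median of -0.42 on the log2 scale across members, a level 25.3% lower.

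**Figure D2:**
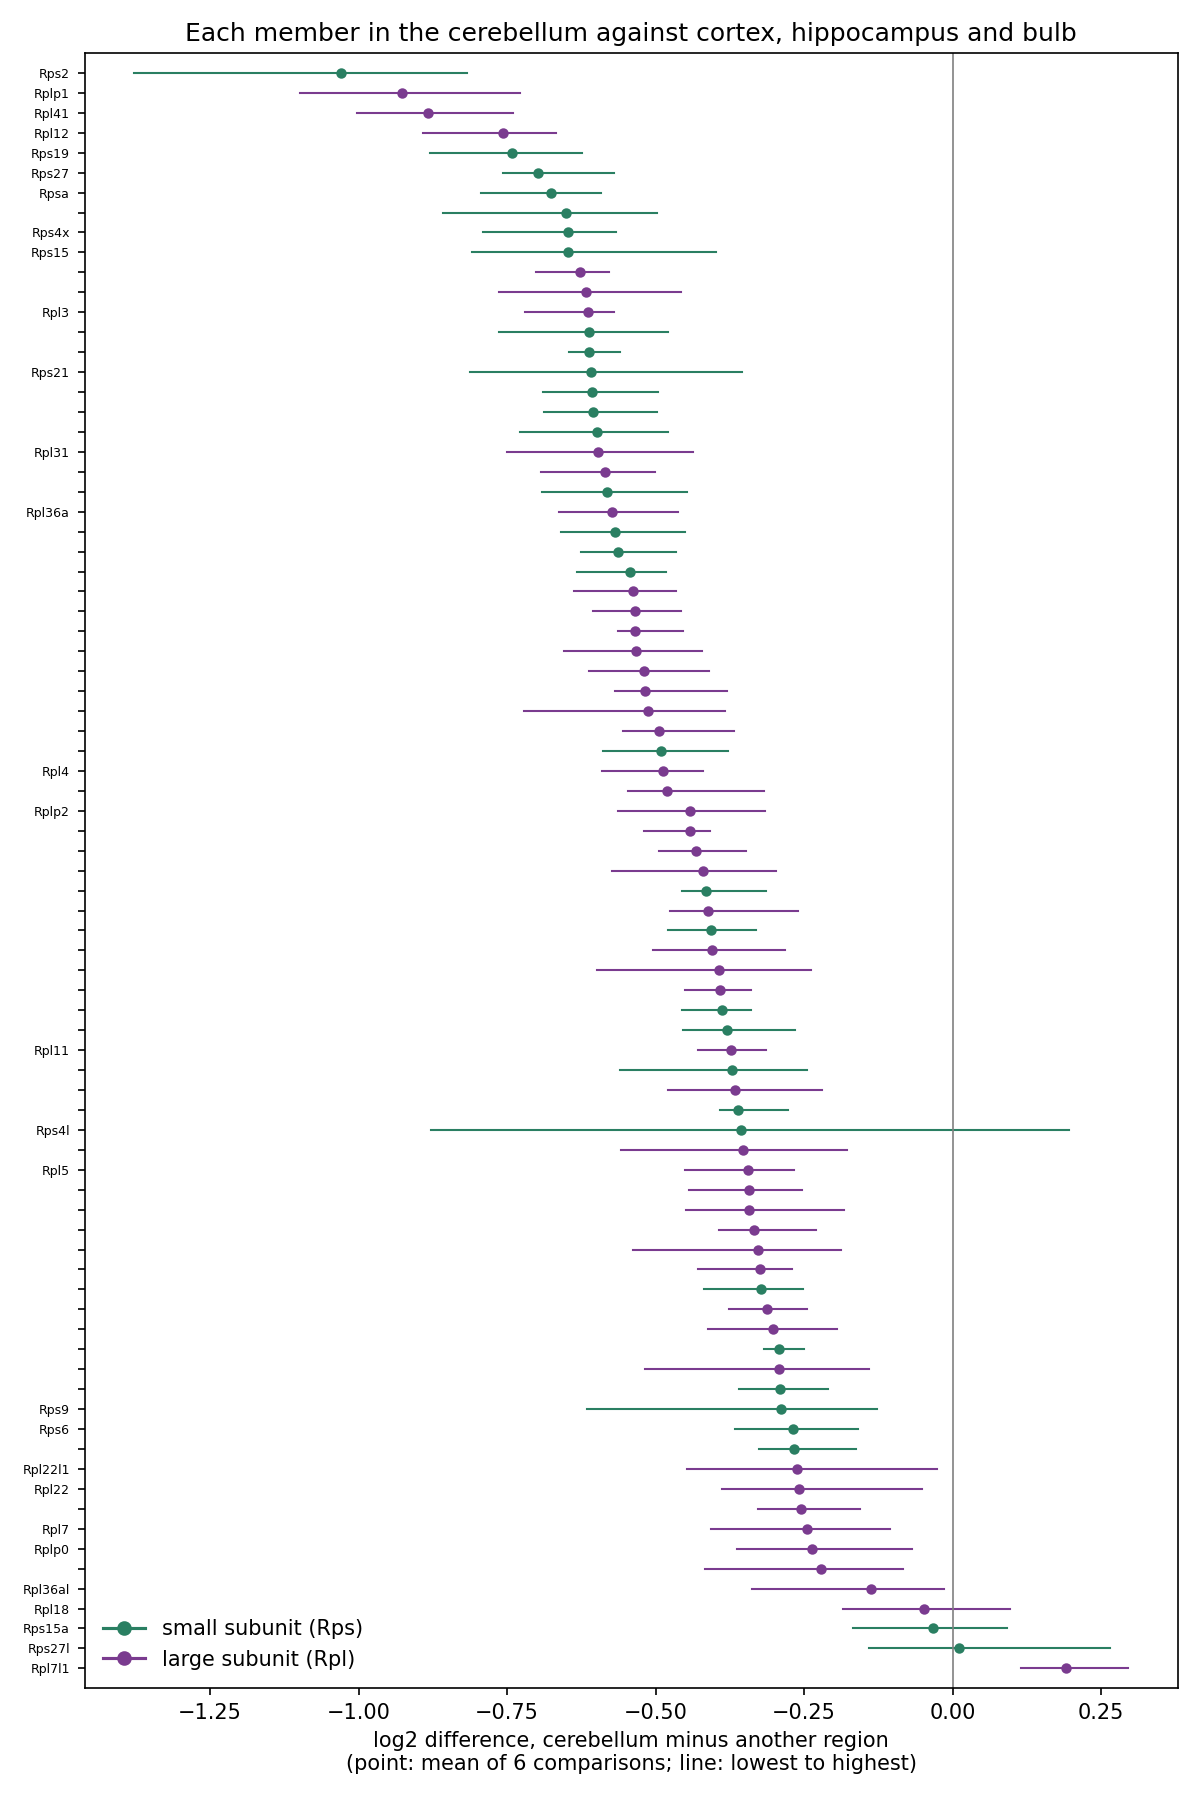
Log2 difference of each of the 81 members between the cerebellum and another region; points are means of the 6 comparisons (3 regions in 2 genotypes) and lines run from the lowest to the highest, with names for some of the members described in the text. Rps2 stands lowest at -1.03 and Rpl7l1 highest at 0.19.

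Both subunits were lower. In wild type, 38 of 48 large-subunit and 27 of 33 small-subunit members were lower than in the cortex, with medians of -0.39 and -0.50. In knockout the counts were 36 and 29, with medians of -0.40 and -0.51. A difference between the subunits was not tested.

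Rps2, a protein of the small subunit near the channel where mRNA enters, had the lowest cerebellar level relative to other regions. In wild type it measured 77.6, 75.5 and 85.4 CPM in the cerebellum, 172, 133 and 195 in the cortex, 156, 164 and 175 in the hippocampus, and 125, 141 and 154 in the bulb. In knockout the values were 82.8, 73.7 and 66.2 CPM in the cerebellum, 163, 138 and 149 in the cortex, 206, 168 and 195 in the hippocampus, and 134, 132 and 125 in the bulb. The 6 cerebellar libraries lay below all others in both genotypes. Relative to the cortex the wild-type difference was -1.07 (SE 0.13, edgeR adjusted p 3.09e-05), and the knockout difference was -1.03 (SE 0.10, edgeR adjusted p 3.57e-06).

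Proteins of the stalk, the arm of the large subunit that recruits elongation factors, ranged widely. Rplp1, one of its acidic tips, had 172, 171 and 165 CPM in the wild-type cerebellum and 163, 165 and 132 CPM in the knockout cerebellum. The 18 libraries of other regions held 252 to 367 CPM, so the groups did not overlap. Its mean over the 6 comparisons was -0.93, and that of Rpl12, at the base of the stalk, was -0.76. The other tip Rplp2 had a mean of -0.44 and was lower in all 6 comparisons. Rplp0, the stalk's backbone, had a mean of -0.24 and was called in 3 of the 6.

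Rpl41, the shortest ribosomal protein, measured 84.8, 98.3 and 90.0 CPM in the wild-type cerebellum and 89.1, 95.5 and 77.9 CPM in the knockout cerebellum. The other libraries held 141 to 201 CPM. Its difference from the hippocampus was -0.74 in wild type (SE 0.12, edgeR adjusted p 0.000265) and -0.90 in knockout (SE 0.09, edgeR adjusted p 4.73e-06). Rps19, which is mutated in Diamond-Blackfan anaemia, held 52.9 to 66.8 CPM in the cerebellum and 89.2 to 114 CPM elsewhere. Rpsa, known also as a laminin receptor, held 201 to 231 CPM in the cerebellum and 271 to 405 CPM elsewhere.

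Some large-subunit proteins are named for their roles. Rpl3, next to the peptidyl transferase centre, held 271 to 300 CPM in the cerebellum and 360 to 489 CPM elsewhere. Rpl4, which lines the exit tunnel, held 298 to 328 against 386 to 475 CPM. Rpl5 and Rpl11, which bind the 5S ribosomal RNA and can hold back the p53 regulator Mdm2, had smaller differences, with means of -0.35 and -0.37, and both were lower in all 6 comparisons. Rps6, the small-subunit protein phosphorylated by S6 kinases, held 63.5 to 74.96 CPM in the cerebellum against 74.7 to 91.9 CPM elsewhere, called in 5 of 6 with a mean of -0.27.

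The 5 members with no lower call were Rps15a, Rpl18, Rps27l, Rpl22l1 and Rpl7l1. Rps15a, a small-subunit protein, measured 153, 166 and 170.2 CPM in the wild-type cerebellum, and 154, 137 and 169 CPM in the wild-type cortex. Its mean over the 6 comparisons was -0.03, and the range, from -0.17 to 0.09, crossed 0. Rpl18 had a mean of -0.05. Rpl22l1, a paralogue of Rpl22, scattered within groups, with 54.3, 42.6 and 80.6 CPM in the wild-type cortex, and its mean of -0.26 was never called.

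Rpl7l1, a paralogue of Rpl7 linked to assembly of the large subunit, was the only member called higher in the cerebellum. It was called in 2 of the 6 comparisons, both against the hippocampus. Libraries of the other regions held 37.9 to 48.8 CPM, so the ranges overlapped. It measured 49.9, 48.1 and 49.1 CPM in the wild-type and 51.6, 50.5 and 50.6 CPM in the knockout cerebellum. The hippocampus held 40.8, 40.7 and 38.4 CPM in wild type and 41.8, 45.2 and 44.2 CPM in knockout. Against the hippocampus it was higher by 0.29 in wild type (SE 0.09, edgeR adjusted p 0.0168, background 24.3% higher) and 0.20 in knockout (SE 0.07, edgeR adjusted p 0.0217, background 28.2% higher). The wild-type call was lost without hippocampus replicate 1 or 3 (adjusted p 0.0617 and 0.101) and without choroid-rich libraries (0.376). The knockout call was lost without cerebellum replicate 1 or hippocampus replicate 1 or 3 (adjusted p 0.0597, 0.134 and 0.0578) and with no low-count filter (0.0571). Its parent Rpl7 held 174 to 191 CPM in the cerebellum and was lower than in the bulb by 0.36 in wild type and 0.41 in knockout (edgeR adjusted p 0.00568 and 0.00106).

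**Figure D3:**
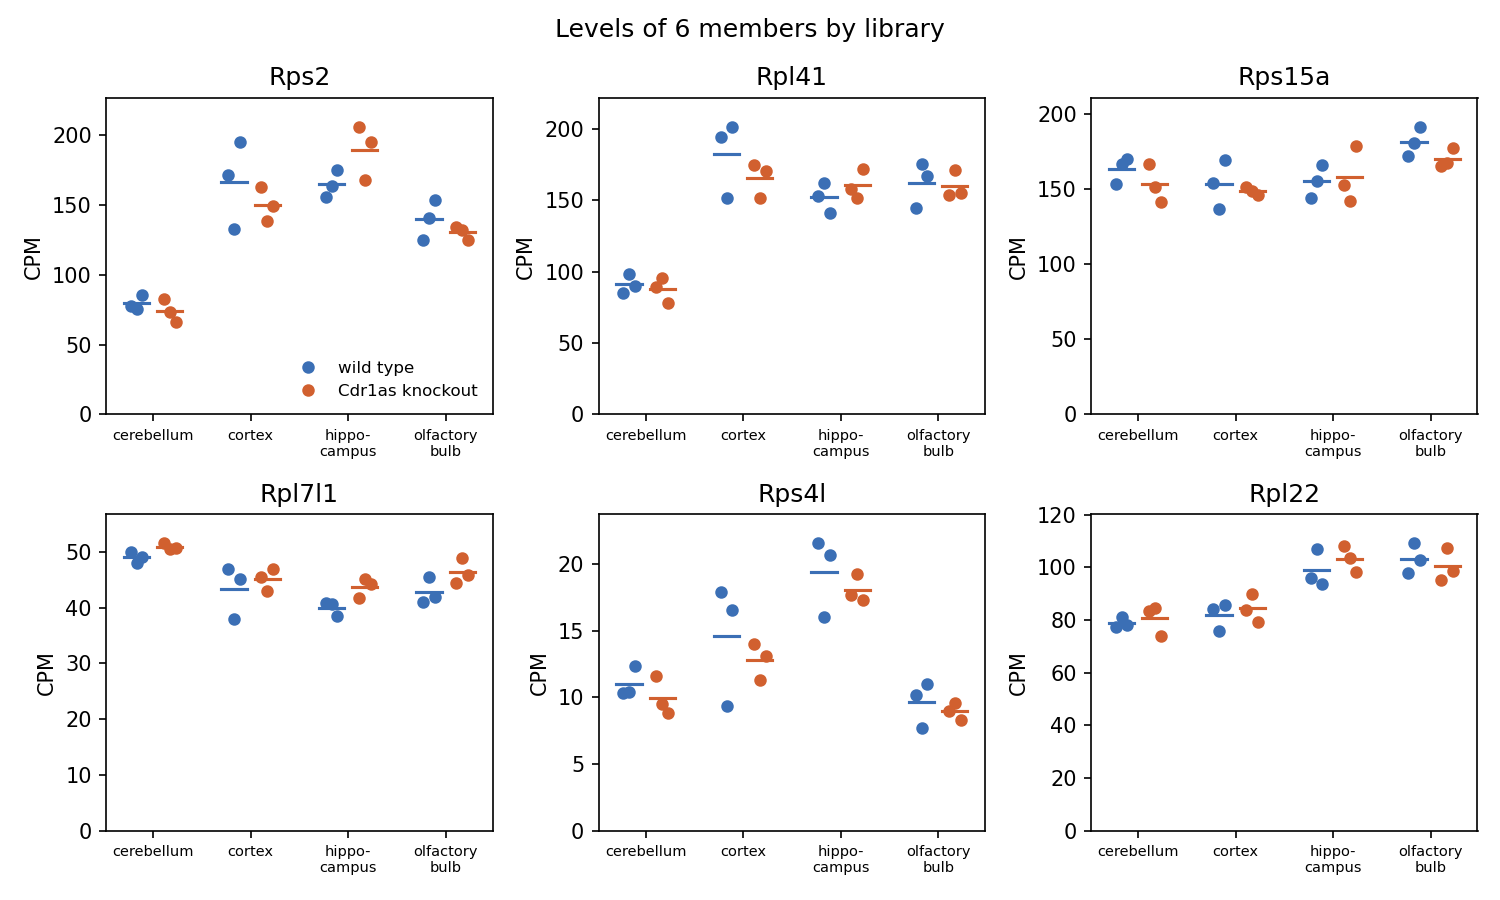
Level in CPM (TMM-scaled) of 6 members in every library; points are libraries, lines means of 3, blue wild type and orange knockout, and each axis starts at 0. Rps2 and Rpl41 are low in the cerebellum, Rps15a is not, and Rpl7l1 has its highest means there. Rps4l peaks in the hippocampus, and Rpl22 is lower in the cerebellum and cortex than in the other regions.

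Other paralogues were set beside their parents. Rps27, a zinc-finger protein of the small subunit, held 52.8 to 67.8 CPM in the cerebellum and 79.2 to 116 CPM elsewhere, with no overlap and a mean of -0.70. Its paralogue Rps27l, a target of p53, held 8.78 to 11.6 against 7.22 to 12.0113 CPM, with a mean of 0.01. Rpl36a held 32.6 to 37.6 CPM in the cerebellum and 44.0 to 61.6 CPM elsewhere, with a mean of -0.57. Its paralogue Rpl36al held 18.9 to 22.8 against 19.1 to 27.9 CPM, with a mean of -0.14 and 2 of 6 comparisons called. In these pairs the parent had the lower mean. Rpl22 and its paralogue Rpl22l1 had means close to each other, at -0.259 and -0.263. The difference between parent and paralogue was not tested.

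Ribosomal protein genes have many processed copies in the genome, and reads that fit several places are set aside when counted per gene. Of the 50-base stretches of a member's transcript, a median of 52.3% occur in another annotated gene, and in Rps27 98.6% do. The median difference was -0.37 for the 12 members with under 25% shared stretches, -0.52 for 25 members with 25% to 50%, -0.39 for 25 members with 50% to 75%, and -0.53 for the 19 with 75% or more. These medians did not follow the order of sharing. Reads that were not unique made up 11.5% to 12.04% of the total in the cerebellum and 10.3% to 13.5% elsewhere.

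The start of the gene was examined because the TOP run lies there. RefSeq promoter windows of assembly GRCm38.p6, from 250 bases before to 50 after each start, were found for 60 of 81 members. A run of at least 10 bases made only of C and T, on the gene's strand and between 40 before and 50 after the start, was present in 43 of 60 (71.7%) and in 18.3% of 27025 genes. The motif CGGAAG, the core bound by ETS factors, was found on either strand in 41 of 60 (68.3%) and in 18.8% of genes, and TATAAA, the core TATA box, in 7 of 60 (11.7%) and 15.7%. Members with the C and T run had a median cerebellar difference of -0.44 (43 members) and those without it -0.41 (17 members). With CGGAAG the median was -0.49 (41 members) and without it -0.37 (19 members). These shares describe the windows, and a match is not a shown binding site.

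The windows below run from 40 bases before to 20 after the RefSeq start, 5′ to 3′, with the longest run of C and T in capitals. They are shown because the first 3 belong to the members with such a run whose cerebellar difference was greatest, and the next 2 to the pair with the least. The last belongs to Rpl7l1, which was called higher in the cerebellum against the hippocampus.
Rps12: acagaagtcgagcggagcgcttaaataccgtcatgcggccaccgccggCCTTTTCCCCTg
Rps21: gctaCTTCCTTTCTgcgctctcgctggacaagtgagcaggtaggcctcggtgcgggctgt
Rpl31: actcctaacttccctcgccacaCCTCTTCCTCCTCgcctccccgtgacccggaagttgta
Rpl18: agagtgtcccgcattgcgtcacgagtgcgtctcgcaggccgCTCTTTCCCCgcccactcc
Rps15a: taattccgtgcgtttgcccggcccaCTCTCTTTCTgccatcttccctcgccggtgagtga
Rpl7l1: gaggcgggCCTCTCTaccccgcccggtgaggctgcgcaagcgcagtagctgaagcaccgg

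On GRCm38.p6 the windows are at chr10:23787190-23787249 (minus strand, Rps12), chr2:180257409-180257468 (plus strand, Rps21), chr1:39367811-39367870 (plus strand, Rpl31), chr7:45718031-45718090 (plus strand, Rpl18), chr7:118116128-118116187 (minus strand, Rps15a) and chr17:46782637-46782696 (minus strand, Rpl7l1). The longest run was 11 bases in Rps12, 10 in Rps21 and 13 in Rpl31. Rpl18 and Rps15a, with mean differences of -0.05 and -0.03, also held runs of 10. Rpl7l1 held a run of 7. The runs lay at different distances from the RefSeq start, and the start used in these brains was not measured.

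Other genes of translation were set beside the members. Their counts stand against the shares of all genes tested that were lower in the wild-type cerebellum (27.3% against the cortex, 24.7% against the hippocampus and 23.7% against the bulb) or higher (26.5%, 24.3% and 22.7%). Of 18 other TOP mRNAs, 7 were lower and 1 higher in the wild-type cerebellum than in the cortex, 6 lower and 1 higher than in the hippocampus, and 7 lower and 1 higher than in the bulb. Their medians were -0.23, -0.17 and -0.19. The elongation factor Eef1a1, which brings aminoacyl-tRNA to the ribosome, was lower by 0.75, 0.89 and 0.85 against the 3 regions. Pabpc1, the poly(A)-binding protein, was lower by 0.31, 0.43 and 0.58. Eef1d, an exchange factor for elongation, went the other way, higher by 0.51, 0.30 and 0.41. The summed level of the 18 was 3898 to 4510 CPM in the cerebellum and 4848 to 6323 CPM elsewhere, with no overlap.

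Ribosomal proteins outside the symbol rule include Fau and Rack1, the latter also known as Gnb2l1. Fau, made as a fusion with a ubiquitin-like protein, measured 86.1, 91.2 and 93.5 CPM in the wild-type cerebellum against 129, 95.8 and 128 CPM in the cortex. It was lower by 0.38 against the cortex and 0.41 against the bulb. Rack1, a scaffold on the small subunit, was lower by 0.47 against the bulb.

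Genes of ribosome assembly and RNA polymerase I had counts near or under those backgrounds. Of 25, 3 were higher and 7 lower in the wild-type cerebellum than in the cortex, 4 higher and 7 lower than in the hippocampus, and 5 higher and 3 lower than in the bulb. Bysl, needed for the small subunit, was lower by 0.86, 0.89 and 0.66. Polr1b, a large subunit of RNA polymerase I, was higher by 0.98, 1.09 and 0.69. Among 20 regulators of translation and ribosomal protein expression, 5 were higher and 5 lower than in the cortex, 3 higher and 4 lower than in the hippocampus, and 2 higher and 8 lower than in the bulb. Eif4ebp1, which blocks cap-dependent translation when mTOR is off, was lower by 1.97, 1.23 and 1.53, and Myc was lower by 0.79, 1.22 and 0.90.

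The mitochondrial ribosome, which has its own set of proteins, was set beside the cytosolic one. Its 76 proteins summed to 1953 to 2148 CPM in the cerebellum and 1845 to 2256 CPM elsewhere. In wild type 10 were higher and 11 lower than in the cortex, 10 higher and 2 lower than in the hippocampus, and 10 higher and 2 lower than in the bulb, all under the backgrounds given above. The medians were -0.08, 0.03 and 0.13. Nuclear genes of oxidative phosphorylation had medians of -0.12, 0.07 and 0.14. Coding genes under 1000 nt that are not members, whose transcripts are as short as most members', had medians of -0.05, 0.01 and 0.03.

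**Figure D4:**
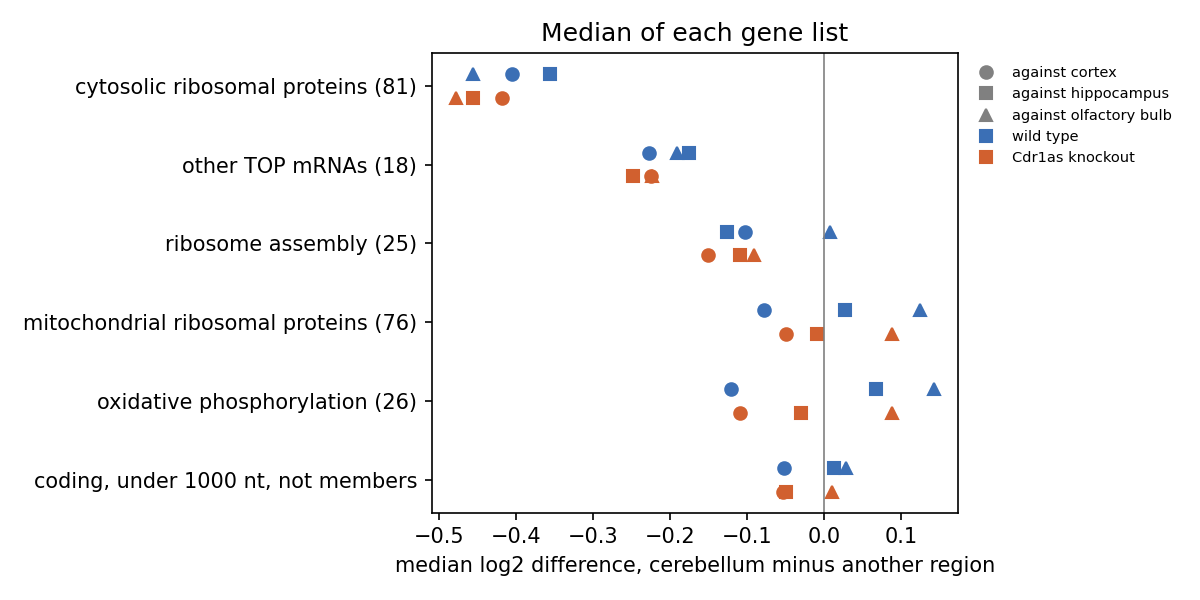
Median log2 difference between the cerebellum and each other region for 6 gene lists; marker shape gives the other region and colour the genotype, and the number of genes is in brackets. The 81 cytosolic ribosomal protein genes lie between -0.36 and -0.48, and the mitochondrial ones between -0.08 and 0.13.

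The make-up of the tissue also differed. The 6 microglia markers summed to 76.8 to 108 CPM in the cerebellum and 263 to 422 CPM elsewhere, and the 4 markers of oligodendrocyte precursors to 97.4 to 148 against 152 to 264 CPM. The 5 markers of neuroblasts and dividing cells summed to 5.05 to 11.7 against 29.5 to 528 CPM, and 6 genes of excitatory neurons, a list that includes the forebrain genes Camk2a and Nrgn, to 762 to 931 against 1483 to 7933 CPM. That sum is not a measure of how many excitatory neurons the cerebellum holds: genes of granule cells, its main excitatory neurons, make up much of the cerebellar marker list, which was high there. The 6 astrocyte markers were higher, at 2436 to 2830 against 1257 to 2048 CPM. Markers of endothelium and oligodendrocytes overlapped between the cerebellum and the rest. None of the microglia, precursor or astrocyte markers was at 0 in a cerebellar library, and at most 1 of the neuroblast list was. The part of these cell types in the ribosomal protein difference was not tested. In bulk tissue, fewer cells of a type and less RNA per cell cannot be told apart.

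Choroid plexus markers varied between libraries, from 31.0 to 2380 CPM in the cerebellum and 7.36 to 3289 CPM elsewhere. Leaving out libraries over 300 CPM left 1 cerebellar and 1 hippocampal wild-type library, each assumed to vary like the other groups. The medians for the cerebellum against each other region in wild type were then -0.35, -0.43 and -0.42. Fewer members, and fewer of all genes tested, were called in that fit. The members' share of calls was then under that of all genes. Depth overlapped, at 27584341 to 39541259 gene counts in the cerebellum and 21068566 to 40472007 elsewhere. Counts outside any feature were 14.4% to 16.8% in the cerebellum and 8.22% to 16.7% elsewhere, and their part was not tested.

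Among cortex, hippocampus and olfactory bulb few members differed. Between cortex and hippocampus 1 member was called in wild type (background 13.5%) and 3 in knockout (21%), all lower in the cortex (backgrounds 5.49% and 9.27%). Between cortex and bulb 9 were called in wild type (background 44.3%), 3 higher in the cortex (22.7%) and 6 lower (21.6%). In knockout 16 were called (48.7%), 3 higher (24.3%) and 13 lower (24.4%). Between hippocampus and bulb 2 were called in wild type (40.9%), 1 higher in the hippocampus (20.9%) and 1 lower (19.9%). In knockout 6 were called (46.7%), 4 higher (23.3%) and 2 lower (23.4%). These shares of 81 members are under the backgrounds. With the replicate number as a block, which pairs wild-type libraries across regions, the hippocampus to bulb count in wild type was 10. Of these 3 were higher and 7 lower, and the share of all genes called in that fit is not given here. The median log2 of the members lay between -0.09 and 0.07 in these 6 comparisons. Leaving out 1 library moved it to between -0.01 and 0.16 for cortex against hippocampus in wild type and between -0.07 and 0.07 for cortex against bulb, with the highest value in both without cortex replicate 2 and the lowest without cortex replicate 3. For hippocampus against bulb it was -0.14 without bulb replicate 1 to -0.04 without bulb replicate 2. In knockout the ranges were -0.09 to 0.00, -0.08 to -0.00 and -0.06 to 0.05, so the sign was not stable for 4 of the 6.

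Rps4l, a gene related to Rps4x that GENCODE lists as a transcribed processed pseudogene, had the greatest difference among these regions. In wild type it measured 17.9, 9.33 and 16.6 CPM in the cortex, 21.6, 16.0 and 20.7 in the hippocampus, and 10.2, 7.71 and 11.0 in the bulb. In knockout the values were 14.0, 11.3 and 13.1 CPM, 17.7, 19.3 and 17.3 CPM, and 8.96, 9.56 and 8.32 CPM in the same order. The hippocampus and bulb did not overlap. The difference was 1.01 in wild type (SE 0.23, edgeR adjusted p 0.00380) and 1.02 in knockout (SE 0.12, edgeR adjusted p 2.81e-05). Without choroid-rich libraries the wild-type call was lost (edgeR adjusted p 0.165). Rps4x itself did not pass between the hippocampus and bulb, with -0.17 in wild type (edgeR adjusted p 0.224) and -0.16 in knockout (edgeR adjusted p 0.0645).

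Rpl22, a large-subunit protein that cells can do without, split the regions another way. In wild type it measured 77.5, 81.3 and 78.3 CPM in the cerebellum and 84.2, 75.8 and 85.9 CPM in the cortex, against 96.1, 107 and 93.6 CPM in the hippocampus and 97.9, 109 and 103 CPM in the bulb. In knockout the cerebellum and cortex held 74.1 to 89.8 CPM, and the hippocampus and bulb 95.2 to 108 CPM. The cortex was lower than the bulb by 0.34 in wild type (edgeR adjusted p 0.00611) and 0.25 in knockout (edgeR adjusted p 0.0175). It was lower than the hippocampus by 0.27 and 0.30 (edgeR adjusted p 0.0498 and 0.0168). The wild-type call against the hippocampus was lost when any 1 of the 12 wild-type libraries was left out (edgeR adjusted p 0.0508 to 0.207). The knockout call was lost without cortex replicate 3 or hippocampus replicate 1 (0.0602 and 0.0525). Against the bulb the knockout call was lost without cortex replicate 3 or bulb replicate 2 (0.0799 and 0.0694). The cerebellum and cortex did not differ beyond their spread, with -0.05 in wild type and -0.08 in knockout (edgeR adjusted p 0.625 and 0.408).

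Rps9, a small-subunit protein, was highest in the bulb. It held 184, 213 and 182 CPM there in wild type and 204, 207 and 192 CPM in knockout, against 136 to 169.6 CPM in the cortex and 141 to 160.1 CPM in the hippocampus. The cortex was lower than the bulb by 0.34 in wild type (edgeR adjusted p 0.0175) and 0.46 in knockout (edgeR adjusted p 0.000177). The wild-type call was lost without cortex replicate 2 or bulb replicate 2 (edgeR adjusted p 0.0601 and 0.0697). Rpl30 and Rps12 were also lower in the cortex than in the bulb in both genotypes, by 0.35 and 0.28 in wild type and by 0.37 and 0.29 in knockout. For Rps12 the call was lost in wild type without cortex replicate 1 or 2 or bulb replicate 2 or 3 (edgeR adjusted p 0.0561 to 0.0774), and in knockout without cortex replicate 3 or bulb replicate 1 or 2 (0.0511 to 0.105).

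Rps15, near the decoding site, and Rps21 went the other way. Rps15 measured 261, 202 and 264 CPM in the wild-type cortex and 171, 190.0 and 186 CPM in the wild-type bulb. The cortex was higher by 0.41 in wild type and 0.35 in knockout (edgeR adjusted p 0.00772 and 0.0176). Scaled by library totals the differences were 0.23 and 0.20 (edgeR adjusted p 0.0793 and 0.120), no longer called. That scaling moved the median of all genes to -0.19 and -0.18 between cortex and bulb. The knockout call was also lost without cortex replicate 1 or bulb replicate 3 (0.0653 and 0.0530). Rps21 was higher by 0.32 and 0.37 (edgeR adjusted p 0.0379 and 0.0384), and both calls were lost with library totals (0.349 and 0.189). They were also lost without wild-type cortex replicate 1 or 3 or any of the 3 wild-type bulb libraries (0.0520 to 0.163), and without knockout cortex replicate 1 or any of the 3 knockout bulb libraries (0.0793 to 0.134).

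Wild-type cortex replicate 2 had a low level of nearly every member. All 81 members were under their group mean there, with a median deviation of -0.20 on the log2 scale, while 72 and 79 of 81 were above it in the other two. The median of all other genes in that library was -0.02. Without it, 6 members were called between cortex and hippocampus in wild type, all higher, 14 between cortex and bulb, of which 12 were higher, and 9 between hippocampus and bulb. Of all genes tested, 16.7%, 46.1% and 42.5% were called in these fits, so the members' shares stayed under the background. In knockout cerebellum replicate 3 all 81 members were also under the group mean, by a median of 0.11.

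Knockout of Cdr1as was compared with wild type in each region, on average over the 4 regions, and for a difference between regions. In each of the 4 regions 0 of 81 members passed edgeR's test, and 0 had an unadjusted p under 0.05. Of all genes tested, 5.48% had such a p in the cerebellum, 4.20% in the cortex, 5.16% in the hippocampus and 5.33% in the bulb. Background calls were 0.0379% of all genes tested in the cortex and 0% in the other 3 regions. DESeq2 also called 0 members in each of the 4 regions. For the average of the 4 regions 0 members passed (background 2.68%) and 1 had an unadjusted p under 0.05 in both edgeR and DESeq2. For the difference between regions 0 passed (background 0.0232%) and 0 had an unadjusted p under 0.05 in either tool. Of all genes tested, edgeR gave an unadjusted p under 0.05 to 14.0% for the average and 2.54% for the difference between regions.

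**Figure D5:**
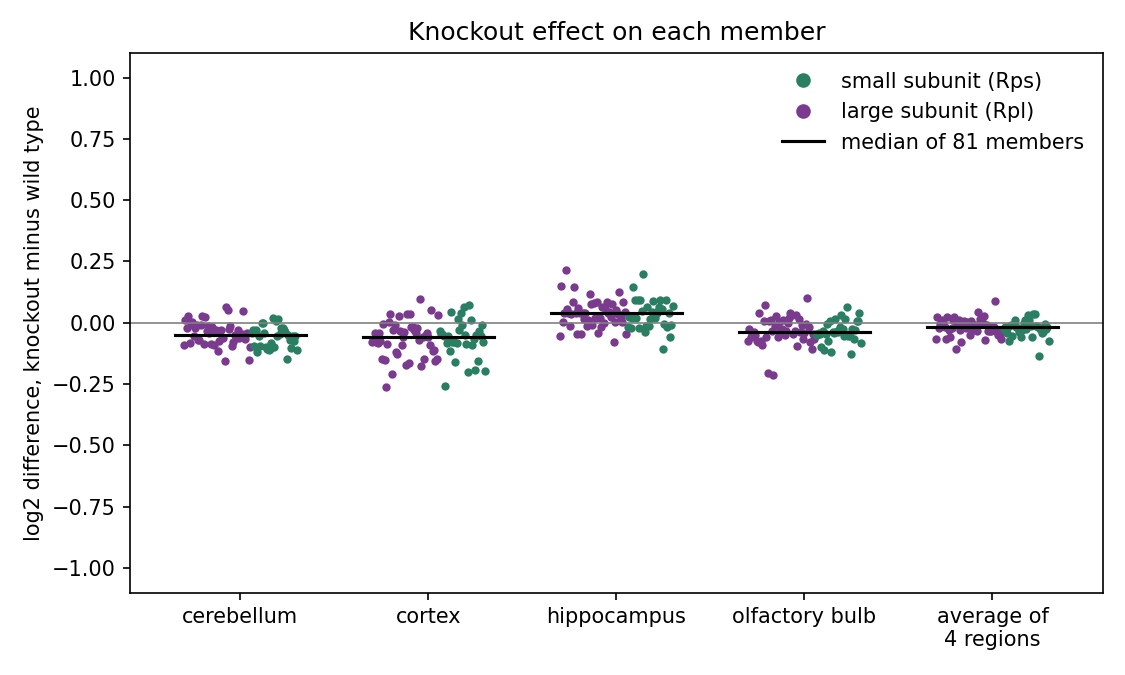
Log2 difference between knockout and wild type for each of the 81 members in each region and on average; points are members, green for the small and purple for the large subunit, and bars are medians. The values lie between -0.26 and 0.22, with medians between -0.06 and 0.04.

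The medians were -0.05 in the cerebellum, -0.06 in the cortex, 0.04 in the hippocampus and -0.04 in the bulb, and that of the average effect was -0.02. Of the 324 values in the 4 regions, 278 were within 0.1 of 0. The greatest difference was 0.26, a factor of 1.20. The interval of the average effect, 2 SE on each side, lay within 0.3 of 0 for 79 of 81 members, and the bounds reached from -0.35 to 0.16. That fit took all libraries as independent, though equal replicate numbers correlated between regions, and the width of the interval depends on this assumption. The median SE was 0.05 for the average and 0.08 to 0.11 in single regions. In the cortex the median ranged from -0.13 without wild-type replicate 2 to 0.01 without wild-type replicate 3, and in the hippocampus from -0.02 without knockout replicate 3 to 0.09 without knockout replicate 2, and it was 0.11 without all libraries numbered 2. In the cerebellum the range was -0.09 without knockout replicate 1 to -0.00 without knockout replicate 3, and in the bulb -0.08 without wild-type replicate 1 to -0.00 without wild-type replicate 2. The average ranged from -0.04 to -0.00, without wild-type cortex replicates 2 and 3 in turn.

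The members with the smallest p in a region are named as values that did not pass. Rpsa in the cerebellum measured 231, 224 and 215 CPM in wild type and 209, 212 and 201 CPM in knockout, with -0.11 (SE 0.07, edgeR adjusted p 0.991). In the bulb Rpl22l1 measured 43.9, 44.6 and 57.1 CPM in wild type and 41.0, 43.4 and 43.7 CPM in knockout, with -0.20 (SE 0.12, edgeR adjusted p 0.983).

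Groups that did not overlap were few. In the cerebellum 1 member was higher (background 6.25%) and 1 lower (4.98%), in the cortex 0 were (5.03% and 4.26%), in the hippocampus 2 were higher (5.5%) and 0 lower (4.96%), and in the bulb 0 were higher (5.83%) and 2 lower (4.41%). Each count is under its background share of 81 members.

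Rpl7l1 had the smallest p for the average effect. It was above 0 in all 4 regions, the only member of which this held, with an average of 0.09 (SE 0.04, edgeR adjusted p 0.242). Below 0 in all 4 regions were 10 members, among them Rpl10, Rpl15, Rps6, Rps4x and Rps4l. Rps4l had the lowest average at -0.13 (SE 0.09, edgeR adjusted p 0.602), and that of Rpl15 was -0.06 (SE 0.04, edgeR adjusted p 0.489). Each paralogue and its parent had no call in any knockout comparison.

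Levels were compared between members per kilobase of transcript. Rplp1 had the highest level at 539 CPM per kilobase, followed by Rps29 at 453, Rps15 at 388, Rpl9 at 328 and Rps21 at 298. The lowest were Rps4l at 16.6, Rpl7l1 at 17.3 and Rps27l at 19.6, all paralogues, followed by Rps20 at 23.7 and Rps15a at 31.3. The transcripts taken for Rps20 and Rps15a are 3706 and 5130 nt long, against a median of 774 nt over the members, and their levels per kilobase depend on those lengths. Shared stretches lower the unique counts of many members to different degrees, so this order describes the counts and not the amount of mRNA.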

How the data were processed

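The authors deposited 1 table of raw read counts per gene for each of 24 libraries, made from poly(A)-selected RNA with a stranded kit, per the labels' protocols. The submitters' processing notes name bcl2fastq 2.17.1.14, STAR 2.5.1b, HTSeq 0.6.1p1 and the mm9 build; whether counting used the strand is not given in the sources used here. The 5 summary lines of each table entered neither the library sizes nor the tests. Reads not unique were 10.3% to 13.5% of the total and members held at least 180 counts in every library.

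Of 37621 feature identifiers, 32897 could be given a symbol from the reference table. The members, lists and tests were chosen with earlier results of these data known. The software was R 4.3.3, with edgeR 4.0.16 for the main test (filterByExpr, TMM, quasi-likelihood F test, robust), limma 3.58.1 and DESeq2 1.42.0. Knockout was compared with wild type within each region's 6 libraries, and for the average and its difference between regions over all 24. Regions were compared within the 12 wild-type and the 12 knockout libraries apart. The Benjamini-Hochberg adjustment covered every gene tested in a comparison. The test was checked on simulated counts.

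Named members are the 5 highest and lowest per length, paralogues and parents, the 5 smallest p where fewer than 5 passed, and up to 5 per direction called in both genotypes. From each pathway list up to 4 genes that passed could be named. Members named for their role, Rps6, Rpsa, Rpl3, Rpl4, Rpl5, Rpl11, Rplp0, Rplp2, Rpl18 and Rps15a among them, and some of the list genes named were chosen after their values were seen. Transcript lengths and shared 50-base stretches came from GENCODE on GRCm38, and no position of a member on mm9 is given.

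Libraries with the same replicate number were correlated over genes. Across wild-type regions the coefficients were 0.130 to 0.711. Across genotypes they were 0.358 to 0.833 for bulb libraries, 0.372 to 0.639 for hippocampal ones and 0.297 to 0.768 for cerebellar ones. The lowest coefficient was under 0 for cortex genotypes (-0.05 to 0.726) and for knockout regions (-0.01 to 0.762). Unequal numbers gave -0.580 to 0.253 across wild-type regions and -0.715 to 0.573 across cortex genotypes. Some pairs of numbers 1 and 3 correlated as highly as equal numbers. Wild-type cortex replicate 1 had 0.573 with knockout cortex replicate 3 and 0.484 with knockout cortex replicate 1. The main tests did not pair libraries, and pairing by replicate number was run only as an alternative. Alternatives were DESeq2, library totals, RLE factors, no filter, a replicate block, limma-voom with correlated libraries, and leaving out each library. Leaving out libraries numbered 2, or rich in choroid plexus markers, was added after seeing the data. Results for some genes are not reported here.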

Additional observations from a re-analysis of the deposited data

How the results depend on the processing

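The 6 comparisons with the cerebellum kept their direction and stayed within 1.5 times the main count under every alternative except the removal of choroid-rich libraries, which gave 19 called members against the cortex, 16 against the hippocampus and 21 against the bulb in wild type. That removal was run only for the cortex knockout comparison and the wild-type regions. Leaving out 1 library at a time gave 44 to 71, 46 to 65 and 58 to 73 called members in wild type and 55 to 70, 65 to 76 and 67 to 74 in knockout. The share of all genes called in each of these fits is not given here. All knockout comparisons gave 0 members under every alternative run, the replicate block and each library left out included. The share of all genes called in these knockout fits is not given here either. In the main fits it was 0% to 0.0379% in single regions and 2.68% for the average.

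Among the other regions the few calls depended on the setting. Apart from the fit without wild-type cortex replicate 2, the share of all genes called in each fit is not given here. The counts below are therefore not set against a background. Between cortex and hippocampus, wild type had 0 called with library totals, with no filter and without choroid-rich libraries, and 7 without libraries numbered 2, all higher. Knockout had 5 with DESeq2, 6 with library totals and 5 with the replicate block. Between cortex and bulb, wild type had 22 with library totals, 5 with no filter, 20 without libraries numbered 2 (19 higher) and 1 without choroid-rich libraries, and knockout had 36, 10 and 8 under the first 3 of these. Between hippocampus and bulb, wild type had 4 with DESeq2, 26 with library totals, 10 with the replicate block and 0 without choroid-rich libraries, and knockout had 21 with library totals.

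Leaving out 1 library gave 0 to 6, 4 to 14 and 1 to 9 in wild type and 1 to 5, 6 to 17 and 4 to 9 in knockout for these 3 pairs in turn. In wild type, leaving out any library but cortex replicate 2 gave 0 between cortex and hippocampus. Between cortex and bulb there were 5 without cortex replicate 1 and 4 without bulb replicate 3, and between hippocampus and bulb 1 without hippocampus replicate 3 or bulb replicate 2 and 4 without bulb replicate 1. In knockout, cortex against hippocampus gave 5 without cortex replicate 1 or hippocampus replicate 2 and 1 without cortex replicate 3 or hippocampus replicate 1, and cortex against bulb gave 9 and 6 without cortex replicates 2 and 3, and 10 and 7 without bulb replicates 1 and 2. Library totals moved the median of all genes between hippocampus and bulb to -0.18 in wild type and -0.15 in knockout, and nearly all calls were then lower, as between cortex and bulb. The cause was not tested. The replicate block changed no other count of calls by over 1.5 times. Among 77 named member results, 85 of the recomputed values were no longer past the threshold, and 0 changed direction while called.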
